A study of Mus musculus with 16 samples.

Results

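Genes of MHC class II presentation were examined in flexor tendons of C57BL/6J (C57) and MRL/MpJ (MRL) mice. The set held 7 genes, chosen by symbol from the 49568 symbols of the count table, and all 7 were present. They were H2-Aa, H2-Ab1, H2-Eb1, H2-DMa, H2-DMb1, Cd74 and Ciita. RNA-seq was available for 16 libraries in 4 groups of 4, namely uninjured tendon and tendon at 7 days post injury (dpi) in each strain. All mice were males of 9 to 11 weeks, and the injury was a partial laceration of about 50% of the width of a deep flexor tendon in a hind paw digit. Each library came from a single tendon with its peritendinous and sheath tissue, so leukocytes and skin next to the tendon could be part of the sample. C57 is a common inbred strain, and MRL is an inbred strain studied for its healing with little scar.

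MHC class II molecules present peptides from endocytosed proteins to CD4+ T cells, and are made mainly by dendritic cells, macrophages and B cells. An alpha and a beta chain assemble with the invariant chain Cd74, which is then degraded in the endosome, and H2-M exchanges the fragment that is left for a peptide. Ciita is the transactivator that binds no DNA itself and docks on a complex of RFX, CREB and NF-Y at the X and Y boxes of class II promoters. In injured tissue these genes are used as signs of antigen-presenting cells.

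The strains carry different H2 haplotypes, the b haplotype in C57 and the k haplotype in MRL. The reads were aligned to the C57 genome, so reads of the polymorphic genes H2-Aa, H2-Ab1 and H2-Eb1 from MRL tendons, and to a lesser degree those of other H2 genes, may map unequally. A difference in level between the strains and a difference in mapping cannot be told apart for these genes in gene counts. Comparisons of injured with uninjured tendon within a strain share the haplotype where the strain labels hold, which was in doubt for 1 uninjured library of each strain. Cd74 and Ciita lie outside the H2 complex. Of the genes of the set, H2-Aa (chr17:34282744-34287823, minus strand), H2-Ab1 (chr17:34257689-34269419, plus), H2-Eb1 (chr17:34305867-34316674, plus), H2-DMa (chr17:34119541-34139101, plus) and H2-DMb1 (chr17:34153072-34160230, plus) lie within 1 stretch of chromosome 17 in GRCm38. Ciita lies at chr16:10480059-10528418 on the plus strand.

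Promoter windows of 300 bases, from 250 before to 50 after the start, were held in RefSeq (GRCm38.p6) for 4 of the 7 genes. They are shown for the 3 genes whose window holds the core of an X or Y box, the elements on which Ciita acts, since these genes rose with injury in MRL tendons. The capitals mark the Y box core CTGATTGG in H2-Aa and H2-Eb1, and the X box core CCTAGNNAC in H2-DMb1, searched on both strands.
H2-Aa promoter, chr17:34287774-34288073, minus strand: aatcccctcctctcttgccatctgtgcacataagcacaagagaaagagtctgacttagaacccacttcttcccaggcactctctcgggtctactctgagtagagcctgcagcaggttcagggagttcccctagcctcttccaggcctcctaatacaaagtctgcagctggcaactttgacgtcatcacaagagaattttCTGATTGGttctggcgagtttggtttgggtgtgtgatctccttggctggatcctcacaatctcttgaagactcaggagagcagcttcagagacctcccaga
H2-Eb1 promoter, chr17:34305617-34305916, plus strand: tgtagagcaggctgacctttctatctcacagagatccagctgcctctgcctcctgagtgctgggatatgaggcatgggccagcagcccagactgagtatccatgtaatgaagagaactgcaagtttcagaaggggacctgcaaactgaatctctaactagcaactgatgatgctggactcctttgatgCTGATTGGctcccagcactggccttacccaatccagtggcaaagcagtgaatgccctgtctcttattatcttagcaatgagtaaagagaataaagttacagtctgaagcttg
H2-DMb1 promoter, chr17:34152941-34153240, plus strand: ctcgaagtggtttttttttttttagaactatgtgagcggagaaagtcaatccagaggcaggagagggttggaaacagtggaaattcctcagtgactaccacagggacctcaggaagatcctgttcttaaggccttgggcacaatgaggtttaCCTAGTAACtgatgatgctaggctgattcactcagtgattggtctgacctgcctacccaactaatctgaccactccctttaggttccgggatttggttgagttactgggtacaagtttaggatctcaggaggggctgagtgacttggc

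The Y box core began 51 bases before the start in H2-Aa and 62 bases before it in H2-Eb1, and the X box core began 98 bases before the start in H2-DMb1. Of all 32851 promoter windows of the same length, 4.10% held the Y box core and 3.91% the X box core on either strand. The longest run of bases shared by the H2-Eb1 and H2-DMb1 windows was AACTGATGATGCT, of 13 bases, which stood in 3 of the 32851 windows. This run was searched for after the sequences were seen. In H2-DMb1 it begins at base 159 of the window, inside the X box core that begins at base 153. In H2-Eb1 it begins at base 162, where only matches to the X box core as written were searched. Neither core was found in the 2 windows of H2-DMa, chr17:34122582-34122881 and chr17:34125268-34125567. Both lie inside the interval given above for this gene, and the start of that interval was not searched. H2-Ab1, Cd74 and Ciita are named only.

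Values are given as CPM, counts scaled to library sizes adjusted by the trimmed mean of M-values (TMM), and the libraries of a group are listed in the order of their replicate numbers. Total counts ranged from 12552424 to 23741648 per library, so 3 counts, taken as the floor, corresponded to 0.126 to 0.241 CPM. Every injured MRL library held 18524170 or more, and every other library 17832908 or less. Where raw counts are given, the groups are therefore not at equal depth. Injured libraries go by the names in their labels, which are, in the order in which values are listed, BI-181, then BI-183, BI-184 and last BI-185 for C57, and BI-270, then BI-272, BI-274 and last BI-275 for MRL. A gene passed the test with an adjusted p-value under 0.05 in edgeR's quasi-likelihood test (Benjamini-Hochberg over all genes tested) and an absolute log2 fold change over 1. Fewer cells of a type and less RNA per cell cannot be told apart in these bulk samples. The tenocyte markers Scx, Mkx, Tnmd, Fmod, Thbs4 and Col1a1 were counted in all 4 groups, with a summed level of 7747 to 36762 CPM.

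Both libraries labelled uninjured replicate 4 went against their strain labels. In the injured tendons, 18 genes had at least 20 counts in all C57 libraries and at most 1 in all MRL libraries, and 25 genes showed the reverse. Of the 25 genes of injured MRL tendons, the uninjured MRL libraries labelled replicates 1 to 3 held 25, 24 and 25 at 5 counts or more, and the uninjured C57 libraries labelled replicates 1 to 3 held 0, 2 and 1. The library labelled C57 uninjured replicate 4 held 24 of them, whereas the library labelled MRL uninjured replicate 4 held 0. Of the 18 genes of injured C57 tendons, the first of these libraries held 3 and the other 14. The labels were kept as deposited. The tests of the set, and the counts of genes called with injury in the lists of related genes discussed below, are given with these libraries and without them.

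**Figure D1:**
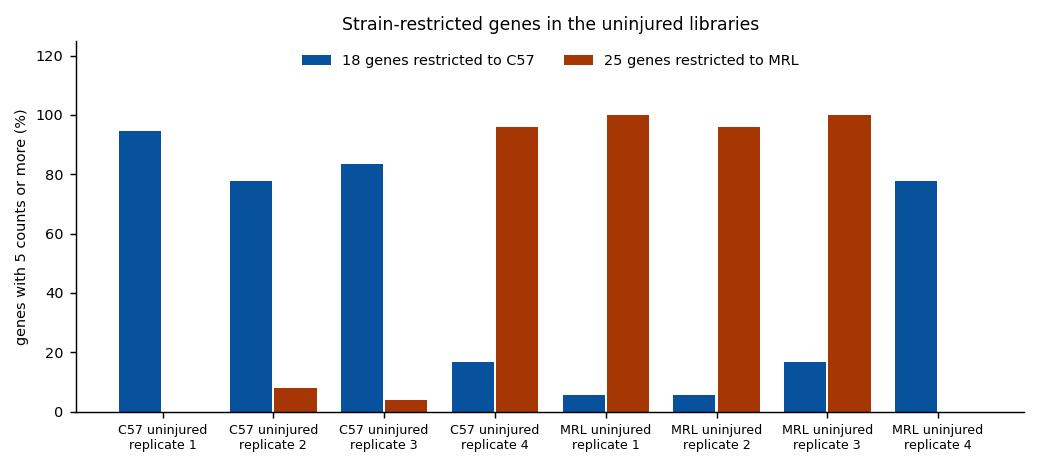
The vertical axis gives the percentage of strain-restricted genes with 5 counts or more in each uninjured library, for 18 genes that among injured tendons were restricted to C57 (blue bars) and 25 that were restricted to MRL (brown bars), with at most 1 count in the other strain. The library labelled C57 uninjured replicate 4 held 24 of the 25 MRL genes, and the library labelled MRL uninjured replicate 4 held 14 of the 18 C57 genes and 0 of the MRL genes.

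The library labelled C57 uninjured replicate 4 also stood apart in its cell types. Its 8 epidermis markers summed to 66152 CPM, against 474 CPM or less in the other uninjured C57 libraries. It held 224 counts of Cd207 (langerin, a marker of Langerhans cells, which are class II positive cells of the epidermis), whereas the other uninjured C57 libraries held 4, 0 and 0 counts. BI-181 was the highest of the injured C57 libraries for skeletal muscle markers, with 24414 CPM of Acta1 (skeletal muscle actin). The part of epidermis in the class II level of the library labelled C57 uninjured replicate 4 was not tested.

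The first question was whether class II genes changed with injury in C57 tendons. All 7 genes were higher in every injured library than in every uninjured library, also with the library labelled C57 uninjured replicate 4 among them. Groups were apart in this direction for 7.42% of 14424 genes tested, and for 11.6% of 14983 without that library. With all 8 libraries, 2 of the 7 genes passed the test (H2-Ab1 and H2-DMb1), against 0.908% of all genes. Without the library labelled C57 uninjured replicate 4, 6 of the 7 passed, against 3.5% of all genes. The median log2 fold change of the 7 genes was 2.55 with and 3.49 without it, and over all genes tested it was -0.05 and -0.01.

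Among the chains of the peptide-binding molecules, H2-Aa (the alpha chain of I-A) was counted at 22.2, 16.4, 17.4 and 93.4 CPM in the uninjured C57 libraries, the last of them the library labelled replicate 4. It was at 174, 218, 193 and 179 CPM in the injured ones. The injured libraries lay close together, and the uninjured group was spread by 1 library. The log2 fold change was 2.29 (SE 0.58, n = 4 and 4, edgeR adjusted p = 0.108), and it was 3.32 (SE 0.18, n = 3 and 4, edgeR adjusted p = 0.000224) without that library.

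H2-Ab1 (the beta chain of I-A) was at 39.2, 24.9, 22.5 and 93.0 CPM in uninjured and 279, 344, 198 and 275 CPM in injured C57 tendons. The groups did not overlap, and the uninjured library nearest to the injured ones was that labelled replicate 4. The log2 fold change was 2.55 (SE 0.48, edgeR adjusted p = 0.0467) with all libraries and 3.21 (SE 0.28, edgeR adjusted p = 0.000884) without the library labelled replicate 4. Leaving out 1 library at a time ended this call in 7 of 8 fits, with log2 fold changes of 2.33 to 2.71 and edgeR adjusted p-values of up to 0.148, and the call held in the fit without the library labelled replicate 4.

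H2-Eb1 (the beta chain of I-E) was at 18.9, 13.2, 11.1 and 70.6 CPM in uninjured and 132, 156, 76.7 and 115 CPM in injured C57 tendons. BI-184, the lowest injured library, was only slightly above the library labelled C57 uninjured replicate 4. The log2 fold change was 2.02 (SE 0.60, edgeR adjusted p = 0.17) and, without that library, 3.03 (SE 0.30, edgeR adjusted p = 0.00161).

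The chains of H2-M, the exchange factor, were counted at lower levels. H2-DMa was at 2.28, 1.62, 1.47 and 11.3 CPM in uninjured and 35.7, 29.3, 27.4 and 24.6 CPM in injured C57 tendons. Its log2 fold change was 2.75 (SE 0.69, edgeR adjusted p = 0.107), and 4.00 (SE 0.31, edgeR adjusted p = 0.000741) without the library labelled replicate 4. H2-DMb1 was at 1.54, 2.46, 1.00 and 3.19 CPM in uninjured and 42.8, 44.5, 33.2 and 37.97 CPM in injured C57 tendons. Its group of uninjured libraries had no library apart from the rest, and the gene rose with a log2 fold change of 4.22 (SE 0.40, edgeR adjusted p = 0.00622). Leaving out 1 library at a time kept this call in all 8 fits.

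Cd74 was the gene of the set with the most counts. It was at 75.7, 45.9, 44.0 and 292 CPM in uninjured and 707, 751, 442 and 627 CPM in injured C57 tendons. The log2 fold change of Cd74 was 2.40 (SE 0.64, edgeR adjusted p = 0.126), and 3.49 (SE 0.29, edgeR adjusted p = 0.000846) without the library labelled replicate 4. The mean of Cd74 without that library was 55.2 ± 17.8 CPM (SD, n = 3) in uninjured and 632 ± 137 CPM (SD, n = 4) in injured tendons.

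Ciita was near the floor before injury, with 2, 4, 0 and 0 counts in the uninjured C57 libraries. The injured C57 libraries held 30, 54, 56 and 14 counts, which correspond to 0.994 to 3.63 CPM. Summed over the libraries, 154 counts in injured tendons stood against 6 in uninjured tendons, a ratio of 24.2 on adjusted library sizes (exact 95% interval 10.9 to 67.1, for counting error only), and 17.8 (8.00 to 49.3) without the library labelled replicate 4. Over libraries the edgeR adjusted p-value was 0.112 with and 0.0572 without that library, so Ciita did not pass the test in either fit. DESeq2 called it in both, with a DESeq2 adjusted p-value of 0.000513 with and 0.0007 without that library. Its exons overlap those of Dexi on the opposite strand by 111 bases, and the strand setting of the counting is not given in the sources used here.

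**Figure D2:**
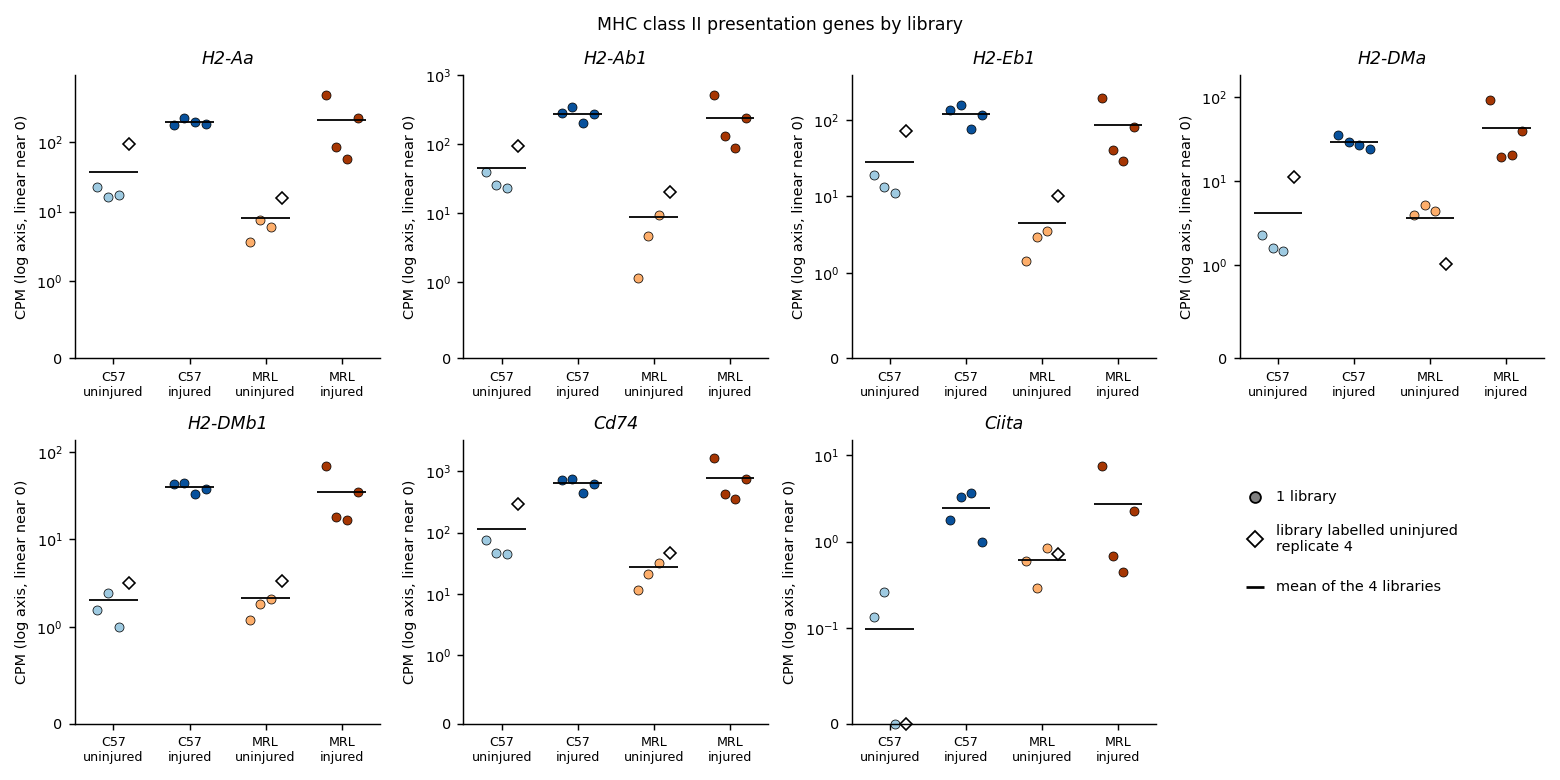
Each panel shows 1 gene, with CPM on the vertical axis (logarithmic, linear near 0) for the 4 groups on the horizontal axis. Points are libraries, open diamonds are the libraries labelled uninjured replicate 4, and lines are means of 4 libraries. For the chains, H2-DMa and Cd74, the diamond of the uninjured C57 group lies above the other libraries of its group, and BI-270 is the highest injured MRL library in every panel.

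The next question was whether class II genes changed with injury in MRL tendons. H2-Aa, H2-Ab1, H2-Eb1, H2-DMa, H2-DMb1 and Cd74 rose and Ciita did not pass the test. The count of 6 of 7 compares with 5.25% of 14274 genes tested that were called higher, and without the library labelled MRL uninjured replicate 4 it was 6 of 7 against 4.68% of 14868. For the same 6 genes the groups did not overlap, as for 13.5% of all genes with that library and 15.7% without it. The median log2 fold change of the 7 genes was 4.26, and over all genes it was -0.03. All 6 calls were kept in each of the 8 fits that left out 1 library.

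H2-Aa was counted at 3.65, 7.57, 5.97 and 15.5 CPM in uninjured and 467, 85.4, 56.9 and 225 CPM in injured MRL tendons. BI-270 and BI-275 were high and BI-272 and BI-274 were low, and this order recurred in each of the chains. The log2 fold change of H2-Aa was 4.69 (SE 0.76, edgeR adjusted p = 0.00653), a 25.8-fold rise. Without BI-270 the value was 3.89, and without the library labelled MRL uninjured replicate 4 it was 5.20 (edgeR adjusted p = 0.00819).

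H2-Ab1 was at 1.13, 4.61, 9.19 and 19.8 CPM in uninjured and 506, 130.2, 88.3 and 238 CPM in injured MRL tendons. Its log2 fold change was 4.81 (SE 0.89, edgeR adjusted p = 0.0121), and it was 4.12 without BI-270 and 5.60 without the library labelled replicate 4. H2-Eb1 was at 1.46, 2.96, 3.52 and 10.3 CPM in uninjured and 194, 39.9, 28.7 and 81.3 CPM in injured MRL tendons. In both genes the library labelled MRL uninjured replicate 4 was the highest of its group. H2-Eb1 rose with a log2 fold change of 4.26 (SE 0.76, edgeR adjusted p = 0.0086), which was 3.45 without BI-270 and 5.03 without the library labelled replicate 4.

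H2-DMa was at 3.98, 5.19, 4.48 and 1.04 CPM in uninjured and 93.9, 19.6, 20.6 and 40.3 CPM in injured MRL tendons. Unlike in the chains, the library labelled replicate 4 was the lowest of the uninjured group for H2-DMa. The gene rose with a log2 fold change of 3.57 (SE 0.62, edgeR adjusted p = 0.0063), which was 2.85 without BI-270 and 3.27 without the library labelled replicate 4. H2-DMb1 was at 1.19, 1.80, 2.09 and 3.37 CPM in uninjured and 69.3, 18.1, 16.7 and 35.3 CPM in injured MRL tendons, and rose with a log2 fold change of 4.05 (SE 0.54, edgeR adjusted p = 0.00231). Without BI-270 this was 3.45, and without the library labelled replicate 4 it was 4.37.

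Cd74 was at 11.5, 21.1, 31.6 and 45.9 CPM in uninjured and 1617, 419, 346 and 748 CPM in injured MRL tendons. BI-270 held more than the other injured libraries, and all 4 were above every uninjured library. Cd74 rose with a log2 fold change of 4.84 (SE 0.60, edgeR adjusted p = 0.00184), and the value was 4.18 without BI-270 and 5.21 without the library labelled replicate 4. Ciita was counted 9, 4, 14 and 9 times in uninjured and 180, 15, 10 and 41 times in injured MRL libraries. BI-272 (0.680 CPM) and BI-274 (0.441 CPM) lay within the uninjured range of 0.288 to 0.836 CPM, and the log2 fold change was 2.16 (SE 0.97, edgeR adjusted p = 0.175). For Ciita the value was 0.86 without BI-270 and 2.26 without the library labelled replicate 4 (edgeR adjusted p = 0.246).

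Uninjured tendons of the strains were compared next. With all 8 libraries, 0 of the 6 genes tested passed, as did 0% of the 14055 genes, among which 4 of the 6 and 1106 of all genes had an unadjusted p-value under 0.05 and DESeq2 called 104, among them 1 gene of the set. H2-Aa, H2-Ab1, H2-Eb1 and Cd74 had log2 fold changes of MRL over C57 of -2.26, -2.43, -2.71 and -2.12 (edgeR adjusted p = 0.621 for each). H2-DMa and H2-DMb1 had values of -0.25 and 0.00, and Ciita did not pass the filter on low counts.

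When both libraries labelled uninjured replicate 4 were left out, 4 of the 6 genes were lower in MRL, against 1.41% of 14274 genes. H2-Aa was at 18.7 ± 3.11 CPM in C57 and 5.73 ± 1.97 CPM in MRL tendons (SD, n = 3 each), 3.29-fold lower in MRL (log2 fold change -1.72, SE 0.34, edgeR adjusted p = 0.0165). H2-Ab1 was at 28.9 ± 9.02 and 4.98 ± 4.04 CPM (SD, n = 3 each), 5.83-fold lower (edgeR adjusted p = 0.0322), and H2-Eb1 was at 14.4 ± 4.02 and 2.65 ± 1.07 CPM (SD, n = 3 each), 5.46-fold lower (edgeR adjusted p = 0.00952). Cd74, which is outside the H2 complex, was at 55.2 ± 17.8 and 21.4 ± 10.02 CPM (SD, n = 3 each), 2.60-fold lower (edgeR adjusted p = 0.0485). DESeq2 on the same 6 libraries called 811 of 25473 genes, among them 4 genes of the set.

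When 1 more library was left out of the 6, 0, 1 and 1 genes of the set passed without C57 uninjured replicates 1, 2 and 3, and 3, 2 and 4 passed without MRL uninjured replicates 1, 2 and 3. Over all genes, 296 to 432 passed in these 6 fits, of 14963 to 15195 tested. Each of the 4 genes kept its sign in all 6 fits, and the median log2 fold change of the set was -1.75 to -1.27 in these fits of 2 against 3 libraries, beside -1.55 with all 6 libraries. Ptprc (CD45, the pan-leukocyte marker) was at 14.2 to 18.3 CPM in these C57 libraries and at 5.43 to 10.1 CPM in these MRL libraries, with a log2 fold change of -1.16 (edgeR adjusted p = 0.0676). The sum of 10 macrophage markers was 1323 to 1502 CPM and 896 to 1487 CPM, respectively. The part of leukocyte numbers in the lower class II level was not tested.

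Neither chain of H2-M passed the test in uninjured tendons. Without the libraries labelled replicate 4, H2-DMa was at 1.79 ± 0.434 CPM in C57 and 4.55 ± 0.611 CPM in MRL tendons (SD, n = 3 each). The log2 fold change was 1.33 (SE 0.56, edgeR adjusted p = 0.241), which did not pass the test. H2-DMb1 was at 1.67 ± 0.738 and 1.69 ± 0.458 CPM (SD, n = 3 each), with a log2 fold change of 0.01 and a 95% interval of -1.67 to 1.69.

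Injured tendons of the strains gave no call in the set. Of the 7 genes 0 were called by edgeR, 0 had an unadjusted p-value under 0.05, and DESeq2 called 0. Over all 14626 genes, 1.55% were called higher and 1.88% lower in MRL. The log2 fold changes of MRL over C57 were 0.09 for H2-Aa (95% interval -1.12 to 1.29), -0.23 for H2-Ab1 (-1.27 to 0.81), -0.52 for H2-Eb1 (-1.70 to 0.65) and 0.27 for Cd74 (-0.72 to 1.26). Those of H2-DMa, H2-DMb1 and Ciita were 0.53 (-0.49 to 1.56), -0.22 (-1.15 to 0.70) and 0.14 (-1.83 to 2.11). The intervals of all 7 genes reached beyond a log2 fold change of 1 in at least 1 direction.

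The spread of the injured MRL group came largely from 1 library. Cd74 was at 782 ± 583 CPM (SD, n = 4) in injured MRL and 632 ± 137 CPM (SD, n = 4) in injured C57 tendons. Without BI-270 all 7 genes had a negative log2 fold change, with a median of -0.74. Of the 7, 0 were called, beside 424 of all 15086 genes tested. An unadjusted p-value under 0.05 in edgeR was found for 3 of the 7 and for 3084 of all genes tested. The median with all libraries was 0.09.

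The change with injury was then compared between the strains. The injury effect in MRL minus that in C57 was 2.34 for H2-Aa, 2.20 for H2-Ab1, 2.18 for H2-Eb1 and 2.38 for Cd74 on the log2 scale, with edgeR adjusted p-values of 0.349 to 0.411. It was 0.77 for H2-DMa, -0.22 for H2-DMb1 and -2.37 for Ciita. The interaction was called in 0 of the 7 genes and in 0% of 15947 genes, with 4 of the 7 genes and 1939 of all genes at an unadjusted p-value under 0.05 in edgeR and 198 genes called by DESeq2. Without the libraries labelled uninjured replicate 4, 0 of 16391 genes (0%) were called, with 4 of the 7 genes and 1735 of all genes at an unadjusted p-value under 0.05, and the values were 1.82, 2.33, 1.94 and 1.66 for the chains and Cd74 and -0.78 for H2-DMa. When 1 library was left out of the 16, the median of the set was 1.18 (without the library labelled C57 uninjured replicate 4) to 2.74 (without that labelled MRL uninjured replicate 4), beside 2.18 with all libraries. In the first of these fits 0 of the 7 genes had an unadjusted p-value under 0.05 in edgeR, and in the fit without BI-270, where the median was 1.39, 1 of the 7 did. The values ranged from 1.32 to 2.84 for H2-Aa, 1.54 to 2.99 for H2-Ab1, 1.18 to 2.95 for H2-Eb1 and 1.30 to 2.74 for Cd74. A difference in the injury effect between the strains was not shown for any gene of the set.

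**Figure D3:**
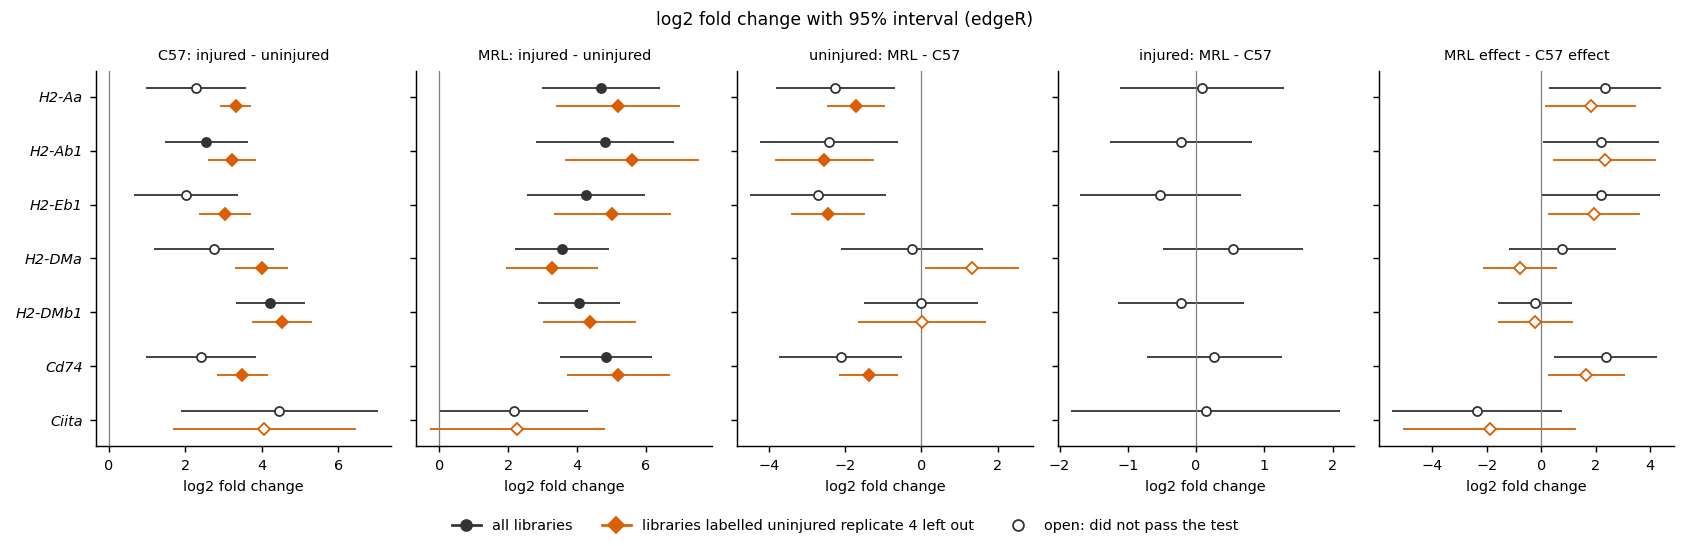
Each panel shows 1 comparison, with the log2 fold change on the horizontal axis and the 95% interval from edgeR as a line. Circles are fits with all libraries and diamonds are fits without the libraries labelled uninjured replicate 4, filled where the gene passed the test. In uninjured tendons the chains and Cd74 pass only without these libraries, with log2 fold changes of -2.54 to -1.38, and in injured tendons the intervals of all 7 genes include 0.

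Per kilobase of exon, Cd74 had the highest level in each group when the libraries labelled uninjured replicate 4 were left out, with 446 ± 96.4 CPM per kb (SD, n = 4) in injured C57 and 553 ± 412 CPM per kb (SD, n = 4) in injured MRL tendons. In injured C57 tendons H2-Ab1 (226 ± 49.4 CPM per kb, SD, n = 4) and H2-Aa (169 ± 17.4, SD, n = 4) followed, then H2-Eb1 (72.0 ± 20.1, SD, n = 4), H2-DMb1 (28.2 ± 3.63, SD, n = 4) and H2-DMa (10.96 ± 1.77, SD, n = 4). The libraries of H2-Ab1 and H2-Aa overlapped on this scale. Ciita was lowest in each group, with 0.296 ± 0.152 CPM per kb (SD, n = 4) in injured C57 and 0.333 ± 0.403 CPM per kb (SD, n = 4) in injured MRL tendons. Exon lengths were those of GENCODE M21 and may differ from those used in counting.

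Ratios within a library are free of library size and are given as a description, with no test. In injured tendons the count of H2-Ab1 was 39.5 to 45.8% of that of Cd74 in the C57 libraries and 25.5 to 31.8% in the MRL libraries. The count of H2-Eb1 was 17.4 to 20.8% of that of Cd74 in injured C57 and 8.30 to 12.02% in injured MRL libraries. The count of H2-DMb1 was 5.92 to 7.51% and 4.29 to 4.81% of that of Cd74. The groups were apart in these 3 ratios to Cd74, but with Ptprc in place of Cd74 the groups overlapped for all 3 genes (2.71 to 7.32 in C57 and 2.68 to 10.003 in MRL for H2-Ab1, 1.05 to 3.36 and 0.872 to 3.84 for H2-Eb1, and 0.454 to 1.09 and 0.458 to 1.37 for H2-DMb1). The count of H2-Aa was 24.6 to 43.7% and 16.4 to 30.0% of that of Cd74, and these groups overlapped. So did those of H2-DMa, with 3.90 to 6.19% in C57 and 4.67 to 5.95% in MRL. How often the ratio of any gene to Cd74 separates the injured groups was not examined, so a separation is not known to be unusual.

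The same ratios could be read in the libraries labelled uninjured replicate 4. H2-Eb1 was 22.4% of Cd74 in the library labelled MRL uninjured replicate 4, whereas it was 11.2 to 13.99% in the other uninjured MRL libraries and 24.9 to 28.6% in the uninjured C57 libraries labelled replicates 1 to 3. In the library labelled C57 uninjured replicate 4 it was 24.2%. H2-Ab1 was 31.9% of Cd74 in that library and 51.2 to 54.3% in the other uninjured C57 libraries. It was 43.1% of Cd74 in the library labelled MRL uninjured replicate 4 and 9.77 to 29.1% in the other uninjured MRL libraries. The ratio of H2-DMb1 to Cd74 was lower in uninjured C57 (1.09 to 5.36%) than in uninjured MRL libraries (6.62 to 10.3%), the opposite order to that in injured tendons, and it was 2.04 to 5.36% in C57 and 6.62 to 10.3% in MRL without the libraries labelled replicate 4. Without these, H2-DMa was 3.02 to 3.53% of Cd74 in uninjured C57 and 14.2 to 34.5% in uninjured MRL libraries. It was 3.87% in the library labelled C57 uninjured replicate 4 and 2.28% in that labelled MRL uninjured replicate 4. The ratio of H2-DMa to H2-DMb1 separated the strains in injured tendons, with 0.649 to 0.835 in C57 and 1.08 to 1.36 in MRL. It was 3.54 in the library labelled C57 uninjured replicate 4 and 0.310 in that labelled MRL uninjured replicate 4, against 0.658 to 1.48 in the other uninjured C57 and 2.14 to 3.33 in the other uninjured MRL libraries. This ratio was chosen after its values were seen.

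**Figure D4:**
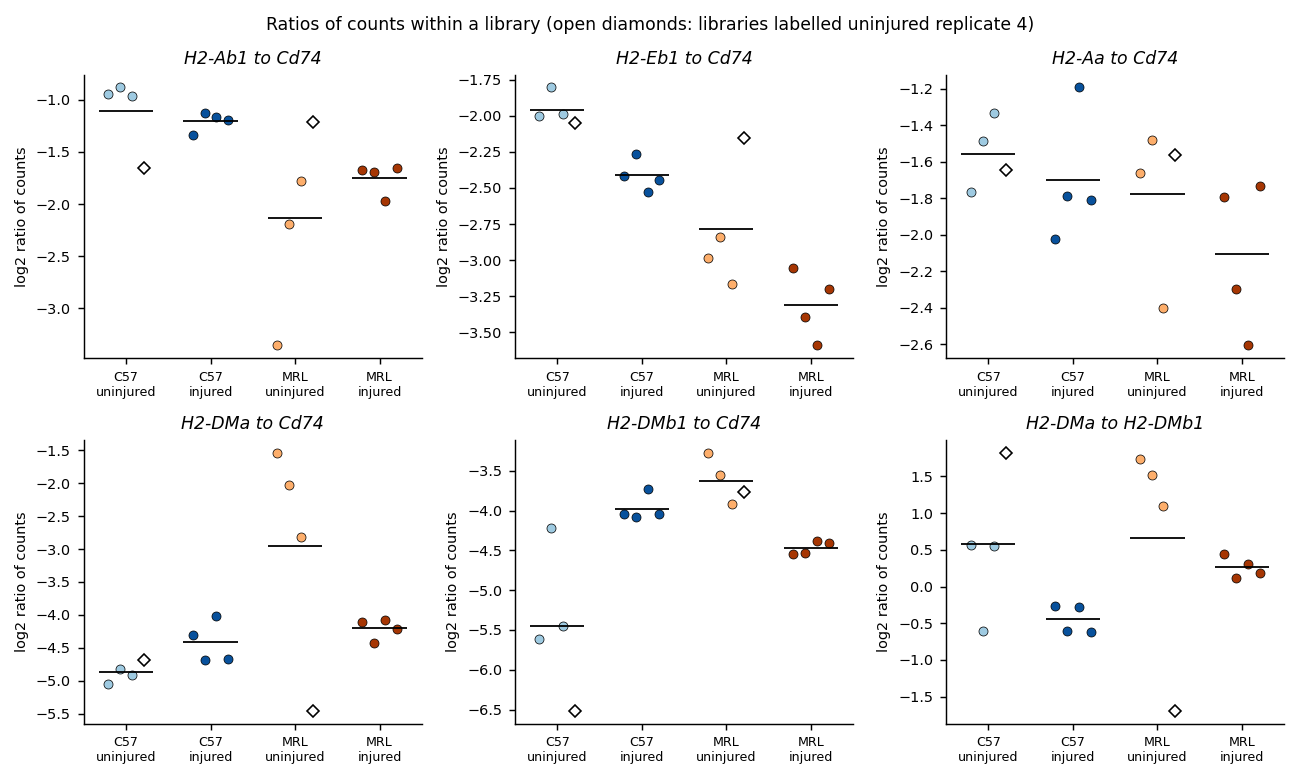
Each panel shows the log2 ratio of the counts of 2 genes within a library (vertical axis) for the 4 groups, with points for libraries, open diamonds for the libraries labelled uninjured replicate 4 and lines for group means. In injured tendons the ratios of H2-Ab1 and H2-Eb1 to Cd74 are higher in all 4 C57 than in all 4 MRL libraries, and the ratio of H2-DMa to H2-DMb1 is lower.

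Of 5 other genes of class II chains and H2-O, 2 were tested with injury in C57 tendons. With all libraries 0 were called, and without that labelled replicate 4, 1 was called higher. In MRL tendons 1 was tested and called higher with all libraries. Without that labelled replicate 4, 3 were tested and 1 was called higher. Between injured tendons of the strains 2 could be tested and 1, H2-DMb2, was called. H2-DMb2, a second beta chain gene of H2-M next to H2-DMb1 (chr17:34143307-34151555, plus strand), was chosen after its values were seen. It held 32, 60, 88 and 28 counts in injured C57 and 913, 209, 241 and 362 counts in injured MRL libraries. H2-DMb2 was higher in injured MRL than in injured C57 tendons (log2 fold change 2.53, edgeR adjusted p = 0.0321). Its count was 4.49 to 17.2% of that of H2-DMb1 in injured C57 and 52.4 to 63.8% in injured MRL libraries. The 2 genes are near copies of each other, so reads of one may be counted in the other, and the levels of both are uncertain.

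The alpha chain of I-E was listed as the polymorphic pseudogene H2-Ea-ps (chr17:34341959-34344645, minus strand), since the b haplotype of C57 carries a defective copy and lacks I-E on the cell surface, whereas the k haplotype makes it. H2-Ea-ps had 0 counts in all 4 injured C57 libraries, which allows up to 3 counts or 0.180 to 0.213 CPM each. It had 108, 0, 25 and 72 counts in the injured MRL libraries. In uninjured tendons it had 20 counts in the library labelled C57 uninjured replicate 4 and 3 counts in MRL uninjured replicate 3, and 0 elsewhere. H2-Eb2 had 0 counts in every library, which allows up to 3 counts in each, and H2-Oa and H2-Ob, the chains of the H2-M inhibitor H2-O, had at most 1 and 44 counts.

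The genes that supply peptides and regulate class II transcription were read from fixed lists. Of 6 peptide supply genes, 1 was called higher with injury in C57 and 2 in MRL tendons, and 0 were called lower. Without the libraries labelled uninjured replicate 4, 2 were called higher in each strain, Ctss and Lgmn in C57 and Ctss and Ifi30 in MRL. Ctss (cathepsin S, the protease that degrades the invariant chain) rose in both strains, with log2 fold changes of 2.36 (SE 0.32, edgeR adjusted p = 0.0163) in C57 and 2.43 (edgeR adjusted p = 0.00209) in MRL. Ifi30 (the lysosomal thiol reductase GILT) rose in MRL, with 1.05 (edgeR adjusted p = 0.0114), and had 0.68 (edgeR adjusted p = 0.295) in C57. Lgmn (legumain) had values of 1.60 (edgeR adjusted p = 0.0578) and 0.90 (edgeR adjusted p = 0.0255), and Ctsl (cathepsin L) had -0.19 and -0.28.

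Of the 7 genes of RFX, NF-Y and CREB, 0 were called in either strain, with the libraries labelled uninjured replicate 4 or without them, and their median log2 fold change was 0.02 with injury in C57 tendons (0.04 without these libraries) and -0.08 in MRL tendons (-0.20 without them). Rfx5, the RFX subunit, had values of 0.71 (edgeR adjusted p = 0.599) and -0.04 (edgeR adjusted p = 0.979). Of the 8 genes of interferon gamma signalling, which induces Ciita, 7 were tested and 0 were called in C57 and 1 in MRL tendons, and without the libraries labelled uninjured replicate 4 the counts were 2 and 1. The gene called in MRL in both fits was Ifngr2 (a receptor chain), with 1.62 (edgeR adjusted p = 0.0017) with all libraries. Those called in C57 without the library labelled replicate 4 were Ifngr2, with 1.01 (edgeR adjusted p = 0.0287), and Irf8, with 2.07 (edgeR adjusted p = 0.0122). Ifng itself had 0 counts in all 16 libraries, which allows up to 3 counts in each. Irf1 and Irf8, transcription factors of the interferon regulatory factor family, had log2 fold changes of 0.66 and 2.35 in C57 and 0.47 and 1.91 in MRL, with edgeR adjusted p-values of 0.055 to 0.571 with all libraries.

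Of 7 genes of co-stimulation and recognition, 6 were tested in each strain and 1 was called, with the libraries labelled uninjured replicate 4 or without them. Cd86, a co-stimulator of T cells, rose in both strains, with log2 fold changes of 1.74 (edgeR adjusted p = 0.0152) in C57 and 1.54 (edgeR adjusted p = 0.033) in MRL. Cd80, the other co-stimulator, had values of 2.85 (edgeR adjusted p = 0.264) and 2.31 (edgeR adjusted p = 0.234).

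The macrophage is one of the cells that carry class II. Of 10 macrophage markers, 5 were called higher with injury in each strain, and without the libraries labelled uninjured replicate 4 the counts were 8 in C57 and 4 in MRL. Their sum was 703 to 1502 CPM in uninjured C57, 4278 to 7918 in injured C57, 896 to 1487 in uninjured MRL and 3443 to 6219 CPM in injured MRL libraries. Adgre1 (F4/80) rose with log2 fold changes of 2.01 (edgeR adjusted p = 0.0479) and 1.67 (edgeR adjusted p = 0.0265, and 0.0581 without the library labelled replicate 4), and Csf1r (the CSF1 receptor) had 1.63 (edgeR adjusted p = 0.0546) and 0.65 (edgeR adjusted p = 0.151). Ptprc rose in both, with 1.69 (edgeR adjusted p = 0.0243) and 2.42 (edgeR adjusted p = 0.00466). The part of macrophage number in the rise of class II genes was not tested.

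Per count of Ptprc, Cd74 was also higher after injury. The ratio of Cd74 to Ptprc was 2.51 to 5.34 in the uninjured C57 libraries labelled replicates 1 to 3, 22.6 in that labelled C57 uninjured replicate 4, and 6.05 to 18.0 in injured C57 libraries. It was 2.12 to 3.40 in uninjured and 9.70 to 31.96 in injured MRL libraries. For Cd74 the uninjured and injured libraries did not overlap in MRL, and in C57 they did not overlap apart from the library labelled replicate 4. Other genes differed in this. Without that library, H2-Ab1 (1.32 to 2.77 and 2.71 to 7.32) and H2-Eb1 (0.652 to 1.33 and 1.05 to 3.36) overlapped in C57. There H2-Aa, H2-DMa and H2-DMb1 did not. In MRL, H2-DMa overlapped (0.0774 to 0.774 and 0.522 to 1.86), and H2-Aa, H2-Ab1, H2-Eb1 and H2-DMb1 did not.

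Macrophage markers were also compared between injured tendons of the strains. Of the 10 markers 3 were called lower in MRL (Csf1r, C1qa and C1qb) and their median log2 fold change of MRL over C57 was -0.97, beside 0.09 for the class II genes (-0.74 without BI-270) and -0.06 for all genes. The difference between the markers and the set was not tested. The ratio of Cd74 to Ptprc overlapped between the strains in these libraries.

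Dendritic cells also carry class II, and the 9 markers summed to 13.02 to 15.6 CPM in uninjured C57, 47.8 to 72.1 CPM in injured C57, 11.7 to 24.2 CPM in uninjured MRL and 21.4 to 45.9 CPM in injured MRL libraries. The median log2 fold change of the markers tested was 2.89 in C57 and 2.92 in MRL, and their part in the rise of class II genes was not tested. Of 9, 6 were tested in C57 with 0 called, and 5 in MRL with 2 called higher, which were Itgax and Cd209a. Without the libraries labelled uninjured replicate 4, 2 were called in C57, Batf3 and Clec10a, and 1 in MRL, Itgax. Itgax (CD11c) had at most 1 count in the uninjured MRL libraries and 42, 119, 152 and 367 counts in the injured ones, and it had 18, 0, 21 and 32 counts in uninjured and 114, 29, 188 and 30 counts in injured C57 libraries. Cd207 had 113 counts in BI-275, 28 in BI-274 and 12 in BI-272, and 0 in BI-270 and in the injured C57 libraries. Flt3 was counted at most 77 times in any library. The 5 B cell markers summed to at most 2.46 CPM and the 6 T cell markers to at most 11.4 CPM in any library, and none of either list was tested within a strain with all libraries. Without the library labelled C57 uninjured replicate 4, the B cell marker Cd79b was tested and called higher in injured C57 tendons (edgeR adjusted p = 0.0489). Cd79a, a B cell marker, had at most 11 counts. Cd3e, a T cell marker, had 78 and 12 counts in BI-181 and BI-183 and at most 2 in the other libraries.

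The genes whose pattern over the 16 libraries was most like the set were found by Pearson's correlation of log2 CPM with the mean standardised log2 CPM of the 7 genes, over 15940 other genes. The 8 highest were Fam49b, Ccr2, Psmb8, Ucp2, Cd84, Selplg, Iqgap3 and Irf5, with r of 0.957 to 0.945. Ccr2 is the monocyte chemokine receptor, Psmb8 a subunit of the immunoproteasome encoded in the H2 complex and Selplg the P-selectin ligand of leukocytes. The libraries share groups and depth, so these values are a description.

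Within the set, the correlation of each gene with the mean of the other 6 was 0.878 to 0.972 for the chains, H2-M and Cd74, and 0.652 for Ciita. After the mean of each group was subtracted, it was 0.836 to 0.938 for H2-Aa, H2-Ab1, H2-Eb1, H2-DMb1 and Cd74, and 0.494 and 0.454 for H2-DMa and Ciita. In this measure the 8 genes most like the set were 3110002H16Rik, 5430416N02Rik, Kpna6, Lrrc42, F11r, Spag5, Gpr160 and Otulin, with r of 0.865 to 0.787. The libraries that stand apart, BI-270 and those labelled uninjured replicate 4, enter these values.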

How the data were processed

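RNA-seq of 16 tendon libraries was analysed from the whole-number counts per gene symbol deposited by the authors in 1 table, without normalization. Per the submitters' processing notes the tools were Trimmomatic 0.36, STAR 2.5.2b, Subread 1.5.0p3 with featureCounts, and DESeq2 1.14.1, with genome build GRCm38.p5. Which annotation was counted, and whether strand was used, is not given in the sources used here. The labels describe a TruSeq kit with 100 ng of total RNA and the methods a low-input amplification, so PCR reads without molecular identifiers may have been counted. Intervals and floors on counts cover counting error only.

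Groups were taken from the labels, and the study gives 4 animals per group. Injured libraries are numbered in accession order, which pairs nothing. Each comparison was fitted on its own libraries with edgeR 4.0.16 in R 4.3.3 (filterByExpr, TMM, robust quasi-likelihood test), and the interaction on all 16. A gene passed with an adjusted p-value under 0.05 and a log2 fold change beyond 1 in either direction, and the interaction needed the adjusted p-value alone. Intervals are 95% intervals from the test's SE and degrees of freedom. Log2 CPM used a prior count of 2. Each fit was tested on simulated data with 200 changed genes, of which 197 to 199 were recovered in comparisons of groups and 152 in the interaction. The simulated libraries varied less than the real ones, and none stood apart from its group. Only well-counted genes were changed, all by the same large factor up or down. Recovery in this setting does not give the power of the tests on these data.

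The genes of the set, the gene lists and the tests were chosen with earlier results of these data known. Named genes were the 7 genes of the set, a fixed list of genes of the pathway and of cell types, and the 8 genes with the most similar pattern. Ifngr2, Batf3, Clec10a, Cd79b, Cd209a, C1qa and C1qb, named as the called genes of their lists, were chosen after their values were seen, and any other such gene is marked. The values of 1 gene of the fixed list are not reported here. Ratios to Cd74 were compared within libraries. Coordinates and exon lengths came from GENCODE M21 (GRCm38), and promoters from RefSeq (GRCm38.p6). Alternatives were DESeq2 1.42.0, relative log expression size factors, no filter, all 16 libraries in 1 fit, the replicate number as a block, each library left out, and Ptprc in place of Cd74 in ratios. Fits without the libraries labelled uninjured replicate 4 were added after seeing the data. Replicates differed by more than sampling noise in all 24 pairs, with a chi-square per gene of 20.9 or more.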

Additional observations from a re-analysis of the deposited data

Results flagged for a closer look

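A sample far from the others of its group was found for 4 genes of the set, and chance flags about 1 in 20 of such groups, of which 28 were examined. All 4 were the library labelled C57 uninjured replicate 4, whose strain-restricted genes were those of MRL and which held epidermis markers. H2-Aa was at 93.4 CPM in it, against 16.4 to 22.2 CPM in the other uninjured C57 libraries. H2-Eb1 was at 70.6 CPM against 11.1 to 18.9 CPM, and H2-DMa at 11.3 CPM against 1.47 to 2.28 CPM. Cd74 was at 292 CPM against 44.0 to 75.7 CPM. The part of the epidermis and of the strain in these levels was not tested.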

How the results depend on the processing

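With DESeq2, 907 genes and 7 of the class II set were called with injury in C57, 1819 genes with injury in MRL, 104 genes and 1 of the set between uninjured tendons, 1490 genes between injured tendons and 198 genes in the interaction. Without the libraries labelled uninjured replicate 4, DESeq2 called 1467 genes and 7 of the set with injury in C57, and 811 genes and 4 of the set between uninjured tendons, where edgeR called 497 and 4. Without the library labelled MRL uninjured replicate 4 and BI-270, 659 genes were called with injury in MRL. With all 16 libraries in 1 fit, 367 genes were called with injury in C57 and 227 between injured tendons. With no filter, 1 gene was called between uninjured tendons, and 4 instead of 6 of the set with injury in MRL.

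Leaving out 1 library at a time, also after the libraries labelled replicate 4, gave 10 to 867 genes and 1 to 6 of the set with injury in C57. The 6 came without the library labelled C57 uninjured replicate 4. It gave 689 to 1260 genes with injury in MRL, 231 to 481 genes and 0 of the set between injured tendons, 0 to 432 genes and 0 to 4 of the set between uninjured tendons, and 0 genes in the interaction.

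Between injured tendons, the sign changed with 1 library left out for H2-Aa (log2 fold change -0.62 to 0.44), H2-Ab1 (-0.83 to 0.089), H2-DMa (-0.11 to 0.81), H2-DMb1 (-0.74 to 0.045), Cd74 (-0.31 to 0.55) and Ciita (-1.08 to 0.53), with the lowest value of each in the fit without BI-270. Between uninjured tendons it changed for H2-DMa (-0.53 to 1.03) and H2-DMb1 (-0.29 to 0.33), with upper values of 1.55 and 0.39 where 1 more library was left out after both labelled replicate 4, and in the interaction for H2-DMa (-0.47 to 1.05) and H2-DMb1 (-0.80 to 0.093). Without both libraries labelled replicate 4, H2-DMa was at 1.33 (1.34 in DESeq2) between uninjured tendons and at -0.78 in the interaction, which was -1.48 without BI-270 as well. H2-DMb1 between uninjured tendons was at -0.010 with DESeq2 and at -0.011 with relative log expression size factors. None of these values passed the test, and the cause was not tested.

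With the replicate block, 0 genes and 0 of the set were called between uninjured tendons, and H2-DMa was at 0.44. Deviations of same-numbered libraries from their group means correlated at -0.26, 0.016, -0.10 and -0.23. The libraries labelled replicate 4, which went against their strain labels, enter these means. The values therefore cannot show whether the numbers pair libraries. The injured libraries carry no numbers.

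With Ptprc in place of Cd74, the log2 ratio of MRL minus C57 was -1.09 for H2-Aa, -1.89 for H2-Ab1, -1.69 for H2-Eb1 and 0.96 for H2-DMb1 in uninjured tendons, against -0.56, -1.76, -1.31 and 1.27 without the libraries labelled replicate 4, and -0.30, -0.65 and -0.24 for H2-Ab1, H2-Eb1 and H2-DMb1 in injured ones. In uninjured tendons the mean log2 ratio of H2-DMa to Ptprc was -2.47 in C57 and -1.42 in MRL, and -3.22 and -0.67 without the libraries labelled replicate 4. That of Cd74 to Ptprc was 2.40 in C57 and 1.54 in MRL, and 1.70 and 1.46 without them. At 0.126 to 0.241 CPM per 3 counts, depth limits Ciita before injury.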
